A study of Schizosaccharomyces pombe with 78 samples.

Results

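A set of 54 noncoding RNAs of the fission yeast Schizosaccharomyces pombe was selected because each was more abundant in growing, unsynchronized (asynchronous) cultures of the Nrm1-SA strain than in those of the Nrm1 strain. The rule took every feature with a systematic name starting SPNCRNA and a mean of at least 10 normalized counts over the 78 libraries, and kept those in which the lower of the 2 asynchronous Nrm1-SA libraries, plus 1, was at least 2 times the higher of the 2 asynchronous Nrm1 libraries, plus 1. Of 7212 noncoding RNAs listed, 2427 had that mean and 54 of these met the rule, against 5 that met its mirror image. With coding genes and other features, 7431 of the 12683 listed features had that mean and entered every test. The members were chosen by their values in these 4 asynchronous libraries, in which they differ by construction, so their levels there are a description. The time courses of the 3 strains and asynchronous Nrm1-SD entered the rule only through the mean over all libraries.

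Polyadenylated RNA was sequenced from 3 strains, all carrying cdc25-22, a temperature-sensitive allele of the phosphatase that triggers mitosis, and a 3xHA tag on the nrm1 gene. In Nrm1-SA, 11 sites for the cyclin-dependent kinase were changed to alanine, which cannot be phosphorylated. In Nrm1-SD, the same 11 sites were changed to acidic residues, and in Nrm1 they were intact. Each strain was sampled as an asynchronous culture in minimal medium at 25 °C and, after a block of 4 h at 36 °C, every 20 min from 0 to 220 min after release to 25 °C, with 2 replicates of each condition. The asynchronous samples were set aside from the cultures before the block, so libraries of 1 strain may share a source culture. Each strain is a single constructed strain, and a difference between strains that does not come from nrm1 cannot be told apart from the mutation. Libraries held 2685381 to 10469416 reads assigned to features. The shallowest was the second asynchronous Nrm1 library, which the rule used. The 2 Nrm1-SA libraries at 140 min differed less than sampling noise and were counted as 1 sample.

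Nrm1 is a co-repressor that binds MBF, the transcription factor of the genes expressed at the G1/S transition, and switches those genes off outside that window. Most fission yeast noncoding RNAs are long, polyadenylated, scarce transcripts, many of them antisense to a coding gene, and the nuclear exosome, RNA interference and chromatin factors keep their levels low. A few have a known role at their locus. The antisense RNA of adh1 is made when zinc is short and lowers the mRNA of the zinc-dependent alcohol dehydrogenase Adh1, and the repressor Loz1 keeps such zinc-responsive genes silent when zinc is plentiful by binding a short element, the Loz1 response element.

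In the asynchronous cultures most members were scarce. The median member had 18 and 18 reads in the 2 Nrm1-SA libraries, 7 and 6 reads in Nrm1-SD, and 6.5 and 2 reads in Nrm1. Of the 54, 13 had 3 or fewer reads in both Nrm1 libraries, 4 had no read in either, and 8 had 10 or fewer reads in each of the 4 libraries of the rule. A single read was therefore able to decide membership near the threshold. Just inside it stood SPNCRNA.4489, with 1.06 and 1.01 normalized counts in Nrm1-SA and 0 in both Nrm1 libraries. SPNCRNA.4877 was there with 14.8 and 23.3 in Nrm1-SA and 6.84 and 4.68 in Nrm1, and SPNCRNA.5234 with 1.06 and 2.02 in Nrm1-SA and 0 in both Nrm1 libraries. Just outside it stood SPNCRNA.1271, with 14.8 and 6.07 in Nrm1-SA and 2.56 and 0 in Nrm1. SPNCRNA.1273 had 11.7 and 11.1 in Nrm1-SA and 5.13 and 2.34 in Nrm1, and SPNCRNA.3400 had 14.8 and 16.2 in Nrm1-SA and 4.27 and 7.02 in Nrm1. SPNCRNA.4489 and SPNCRNA.5234 had far lower counts than the other 4 of these 6.

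By annotated position, of the 54 members 46 lay at least partly opposite a coding gene (85.2%, against 83.1% of the other 2373 tested noncoding RNAs), and 16 began within 1 kb after the end of a coding gene on the same strand (29.6%, against 35.9%). Their median length was 1309 bases, against 1315 in the others. Within 100 kb of a chromosome end lay 10 members (18.5%, against 3.80% of the others). A further 8 were within 5 kb of a gene of zinc homeostasis. These position groups, and the remaining 36 members, were formed after the values had been seen, and their counts below are descriptions of the set.

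To see whether the members were also raised outside the asynchronous samples, the strains were compared over the synchronous time course. Of the 54 members, 27 rose in Nrm1-SA relative to Nrm1, 8 fell and 19 did not pass (limma on log2(normalized count + 1) averaged over the 12 times of each culture, 2 cultures a strain, Benjamini-Hochberg adjusted p under 0.1). In the same fit 21.9% of all tested features rose and 21.6% fell, so 27 of 54 lies above the first share and 8 of 54 below the second. Their median difference was 0.24 on the log2 scale, against -0.05 in the other noncoding RNAs, of which 276 rose and 504 fell, and -0.0037 over all features. The required mean of 10 did use these libraries, and 5 members, SPNCRNA.4497, SPNCRNA.6641, SPNCRNA.2067, SPNCRNA.4489 and SPNCRNA.3288, had a mean under 10 over the 26 Nrm1 libraries and so passed it through the mutants. All 5 are among the 27, and their differences from Nrm1 are a description. Of the other 49 members 22 rose and 8 fell. Both Nrm1-SA cultures lay above both Nrm1 cultures in 31 members, and in 35.1% of all features. Differences ran widely, between 4.50 for the antisense RNA of adh1 and -0.92 for SPNCRNA.5234.

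**Figure D1:**
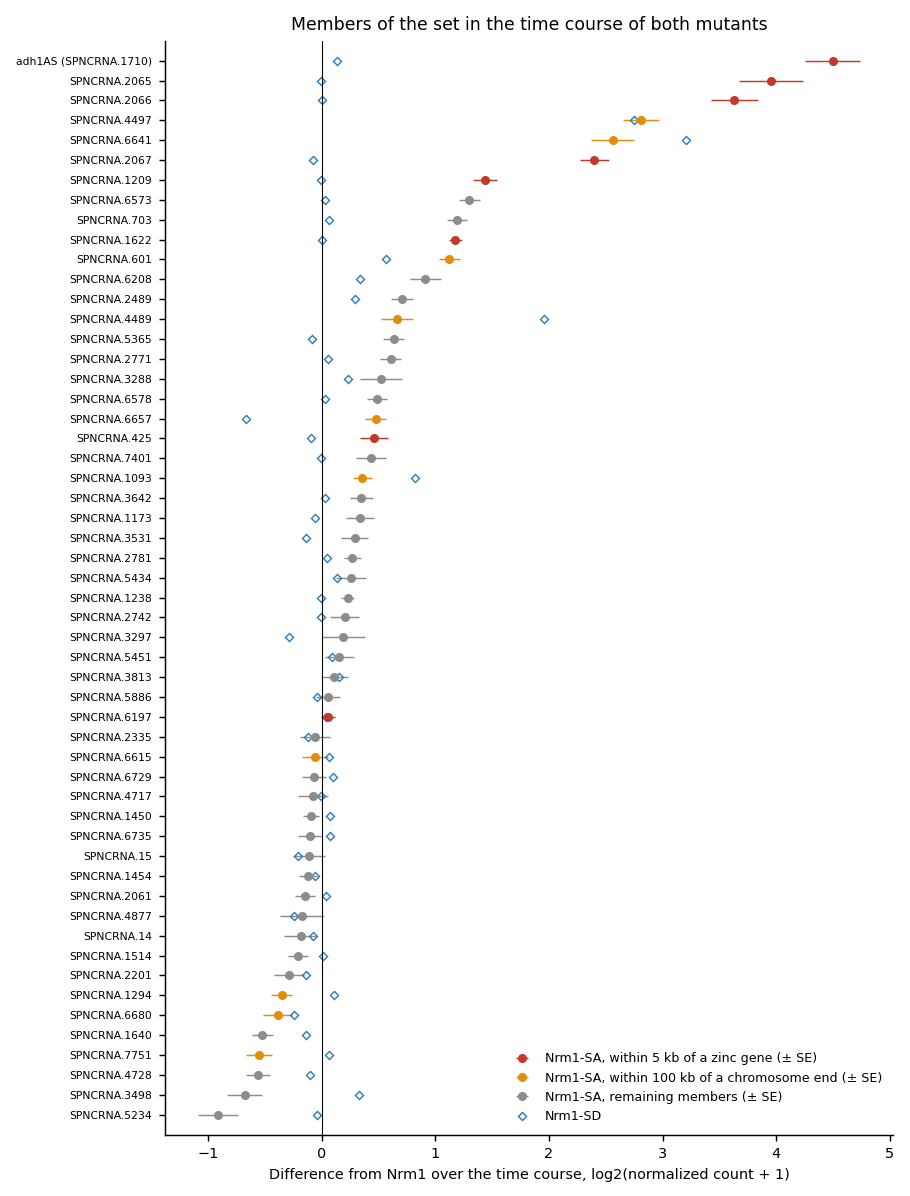
Difference from Nrm1 over the time course (x axis, log2(normalized count + 1)) for each of the 54 members (y axis, sorted), as filled circles with their standard error for Nrm1-SA, coloured by position group, and open diamonds for Nrm1-SD. Nrm1-SA ran between -0.92 and 4.50 while most Nrm1-SD values stayed near 0, and members near chromosome ends held most of the Nrm1-SD values far from it.

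In Nrm1-SD over the time course, 5 members rose relative to Nrm1 and 1 fell (limma, adjusted p under 0.1), against 0.861% and 0.982% of all features, and the median member differed by 0.02 on the log2 scale. All 5 that rose were within 100 kb of a chromosome end, and all 5 also rose in Nrm1-SA. Of these 5, SPNCRNA.4497, SPNCRNA.6641 and SPNCRNA.4489 had passed the required mean through the mutants. Compared directly over the time course, 23 members were higher in Nrm1-SA than in Nrm1-SD and 10 were lower, with a background of 20.3% and 19.3%. Of the 27 members that rose in Nrm1-SA against Nrm1, 22 were also higher than in Nrm1-SD. Among the 23 and the 22, SPNCRNA.2067 had passed the required mean through Nrm1-SA. Among the 10, SPNCRNA.4489 had passed it through Nrm1-SD and SPNCRNA.6641 through both mutants. The differences of these members between the mutants are a description. These comparisons share the culture means of the strains, so they are not independent of each other.

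The 3 members that rose most lay at the loci of adh1 and adh4. Of the 8 members within 5 kb of a zinc gene, 7 rose in the Nrm1-SA time course, beside 21.9% of all features. The median over the 8 was 1.92 on the log2 scale. All 8 lie at adh1, adh4 or zrt1, some of them overlapping, and SPNCRNA.2067 had passed the required mean through the mutants. In Nrm1-SD none of the 8 passed in either direction by limma, edgeR or DESeq2, and 0 had an unadjusted p under 0.05. The other 27 tested noncoding RNAs within 5 kb of a zinc gene had not met the rule. They moved both ways in Nrm1-SA, 5 up and 6 down, with a median of -0.07.

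The antisense RNA of adh1, adh1AS (SPNCRNA.1710, chrIII:1590025-1593983, minus strand), was the most abundant member. It had 30179 and 29412 normalized counts in asynchronous Nrm1-SA, 573 and 656 in Nrm1-SD and 587 and 606 in Nrm1. Asynchronous Nrm1-SA thus stood far above both other strains, which overlapped. Over the time course it averaged 27177 and 24319 in the Nrm1-SA cultures, 938 and 2035 in Nrm1-SD and 1095 and 1520 in Nrm1. Every Nrm1-SA library of the time course, at 16820 or more, exceeded every Nrm1 library, at 4437 or less, and the difference was 4.50 ± 0.24 on the log2 scale (SE, limma adjusted p = 6.8e-07). Nrm1-SD differed from Nrm1 by 0.14 ± 0.24 (adjusted p = 0.88).

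The gene on its other strand, adh1, which encodes the main alcohol dehydrogenase, went the opposite way. It averaged 1194 and 1304 normalized counts in the Nrm1-SA cultures over the time course, 29455 and 28340 in Nrm1-SD and 29628 and 29160 in Nrm1. The Nrm1-SA cultures were lower than all others, and adh1 fell by 4.58 on the log2 scale (SE 0.05, limma adjusted p = 1.6e-12). The RNA amounted to 2002% of the adh1 count in the Nrm1-SA time course and to 4.24% of it in Nrm1. These are shares of counts, not corrected for length. Of the length of adh1AS, 40.4% lies opposite coding sequence annotation, and on its own strand it overlaps the coding gene SPCC13B11.02c. Next to adh1AS, on the other strand, lay SPNCRNA.1209 (chrIII:1594598-1595339, plus strand). It had 74.2 and 79.9 normalized counts in asynchronous Nrm1-SA, 10.2 and 11.6 in Nrm1-SD and 13.7 and 25.7 in Nrm1, so that Nrm1-SD was no higher than Nrm1. It rose by 1.43 ± 0.10 (SE) on the log2 scale in the Nrm1-SA time course (limma adjusted p = 6.1e-06), in which all its Nrm1-SA libraries lay above all its Nrm1 libraries.

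The core of the Loz1 response element, 10 bases of which 3 may be any base, was searched for on both strands around the members because 8 of them adjoin zinc genes. It occurred in the span of the RNA or within 1 kb of it at 12 of 54 members (22.2%), against 17.3% of the other tested noncoding RNAs. In the span alone the shares were 9.26% and 8.58%. SPNCRNA.1622, SPNCRNA.425 and SPNCRNA.6197 shared a match, as did adh1AS and SPNCRNA.1209. Members away from the zinc loci also had matches. Among them SPNCRNA.2489 rose in the Nrm1-SA time course, SPNCRNA.7751 fell and SPNCRNA.4877 did not pass. Within 250 bases before to 50 after an annotated start, 0 of 54 members had it, against 1.3% of all annotated genes. In the same window the MCB (ACGCGT), the element bound by MBF, was found in 0 of 54 members and 2.45% of all genes, and TGACGT, a CRE-like element, in 2 of 54 members and 5.47% of all genes. Some of the matches at loci of the most changed members are printed with 20 bases on each side, from the RefSeq assembly ASM294v3, written 5′ to 3′ on the strand of the match and with the core in capitals. They lie inside adh1AS and within the body of adh1 (chrIII:1592212-1592261, minus strand), inside adh1AS 252 bases after its annotated start (chrIII:1593702-1593751, minus strand), 185 bases before the annotated start of zrt1 and inside SPNCRNA.1622 (chrII:3606963-3607012, plus strand), 711 bases before the annotated start of adh4 (chrI:158623-158672, minus strand), and 83 bases before the annotated start of fmd1 inside SPNCRNA.6573 (chrII:4375188-4375237, plus strand). A second match inside SPNCRNA.1622, 1654 bases before the annotated start of zrt1, is not printed. Nor is a match near SPNCRNA.1209, 103 bases before the annotated start of SPCC13B11.03c. A match is a run of letters and no sign of binding.
adh1AS within adh1: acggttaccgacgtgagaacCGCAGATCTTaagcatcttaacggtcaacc
adh1AS near its start: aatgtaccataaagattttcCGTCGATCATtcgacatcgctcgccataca
SPNCRNA.1622 and zrt1: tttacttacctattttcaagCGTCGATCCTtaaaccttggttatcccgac
adh4: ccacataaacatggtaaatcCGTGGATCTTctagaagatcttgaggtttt
SPNCRNA.6573 and fmd1: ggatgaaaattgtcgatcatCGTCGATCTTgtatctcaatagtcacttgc

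At adh4, a gene for an alcohol dehydrogenase known to be expressed when zinc is short, 3 members were raised. SPNCRNA.2065 (chrI:156500-157198, plus strand), wholly opposite adh4, had 183 and 186 normalized counts in asynchronous Nrm1-SA, 9.31 and 13.2 in Nrm1-SD and 6.84 and 9.36 in Nrm1. SPNCRNA.2066 (chrI:157304-157845, plus strand), also wholly opposite adh4, had 123 and 105 in Nrm1-SA, 2.79 and 6.62 in Nrm1-SD and 4.27 and 7.02 in Nrm1. Only the Nrm1-SA libraries stood apart. Over the time course they rose by 3.96 ± 0.28 and 3.63 ± 0.21 (SE) on the log2 scale in Nrm1-SA (limma adjusted p = 4.7e-06 and 9.7e-07), and adh4 itself rose by 4.04 ± 0.18, to 41498 and 41374 normalized counts in Nrm1-SA, against 2433 and 3029 in Nrm1. Both RNAs kept about the same share of the adh4 count: SPNCRNA.2065 amounted to 0.463% of it in Nrm1-SA and 0.446% in Nrm1, and SPNCRNA.2066 to 0.335% and 0.393%. Another 20 noncoding RNAs wholly opposite a gene with a mean of at least 10000 had shares of 0.0893% to 0.753% (median 0.285%). How the counting treated strand is not given in the sources used here, and the part that reads of adh4 play in these 2 RNAs was not tested.

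SPNCRNA.2067 (chrI:159782-160319, plus strand), 1850 bases from adh4 and mostly opposite pan6, a gene of pantothenate synthesis, did not follow its partner. It had 55.1 and 54.6 normalized counts in asynchronous Nrm1-SA, 9.31 and 8.28 in Nrm1-SD and 5.98 and 4.68 in Nrm1. Over the time course it averaged 43.9 and 40.2 in Nrm1-SA, 6.25 and 8.10 in Nrm1-SD and 7.13 and 6.76 in Nrm1, with no overlap between Nrm1-SA and Nrm1 libraries. It was 2.40 ± 0.13 (SE) higher in Nrm1-SA on the log2 scale while pan6 fell by 0.99 (SE 0.03, adjusted p = 3.5e-08). Its Nrm1-SA level was not steady: it averaged 69.8 at 0 min, 14.9 at 100 min and 63.5 at 220 min.

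At zrt1, the gene of the high-affinity zinc transporter, 3 members overlapped or adjoined each other. SPNCRNA.1622 (chrII:3605352-3607271, minus strand), which covers the start of zrt1 and the region before it on the other strand, had 236 and 240 normalized counts in asynchronous Nrm1-SA, 53.1 and 64.6 in Nrm1-SD and 63.3 and 74.9 in Nrm1. Nrm1-SD and Nrm1 overlapped. It rose by 1.17 ± 0.06 (SE) on the log2 scale in the Nrm1-SA time course (limma adjusted p = 3.6e-07), beside a rise of 0.93 ± 0.05 in zrt1. SPNCRNA.425, which overlaps SPNCRNA.1622 on the other strand, rose by 0.46 ± 0.12 (adjusted p = 0.015). SPNCRNA.6197 (chrII:3599861-3604719, minus strand), wholly opposite mok13, a gene of cell wall alpha-glucan synthesis, had 58.3 and 68.8 in asynchronous Nrm1-SA, 23.3 and 29.8 in Nrm1-SD and 23.9 and 21.1 in Nrm1. Across the time course its cultures overlapped and it did not pass, at 0.05 ± 0.06 in Nrm1-SA (adjusted p = 0.57), but at 0 min it rose by 0.64 ± 0.16 (adjusted p = 0.0083).

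Outside the zinc loci and the chromosome ends, the 2 largest rises in Nrm1-SA were those of SPNCRNA.6573 and SPNCRNA.703. SPNCRNA.6573 (chrII:4373696-4375231, plus strand) lies opposite fmd1, a formaldehyde dehydrogenase gene. It had 38.2 and 49.6 normalized counts in asynchronous Nrm1-SA, 6.52 and 9.94 in Nrm1-SD and 12.8 and 7.02 in Nrm1, and averaged 71.9 and 65.9 in the Nrm1-SA time course, 27.1 and 29.4 in Nrm1-SD and 26.7 and 28.9 in Nrm1. It rose by 1.30 ± 0.09 (SE) on the log2 scale (limma adjusted p = 4.3e-06), while fmd1 fell by 0.68 (SE 0.03, adjusted p = 2.7e-07). SPNCRNA.703 (chrI:993887-995063, plus strand) overlaps the end of slp1, the Cdc20-like activator of the anaphase-promoting complex, on the other strand. It had 99.7 and 99.1 in asynchronous Nrm1-SA, 41.0 and 29.8 in Nrm1-SD and 42.7 and 32.8 in Nrm1. It rose by 1.19 ± 0.09 over the time course (adjusted p = 7.6e-06), and slp1 rose by 0.36 ± 0.06 (adjusted p = 0.00086).

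**Figure D2:**
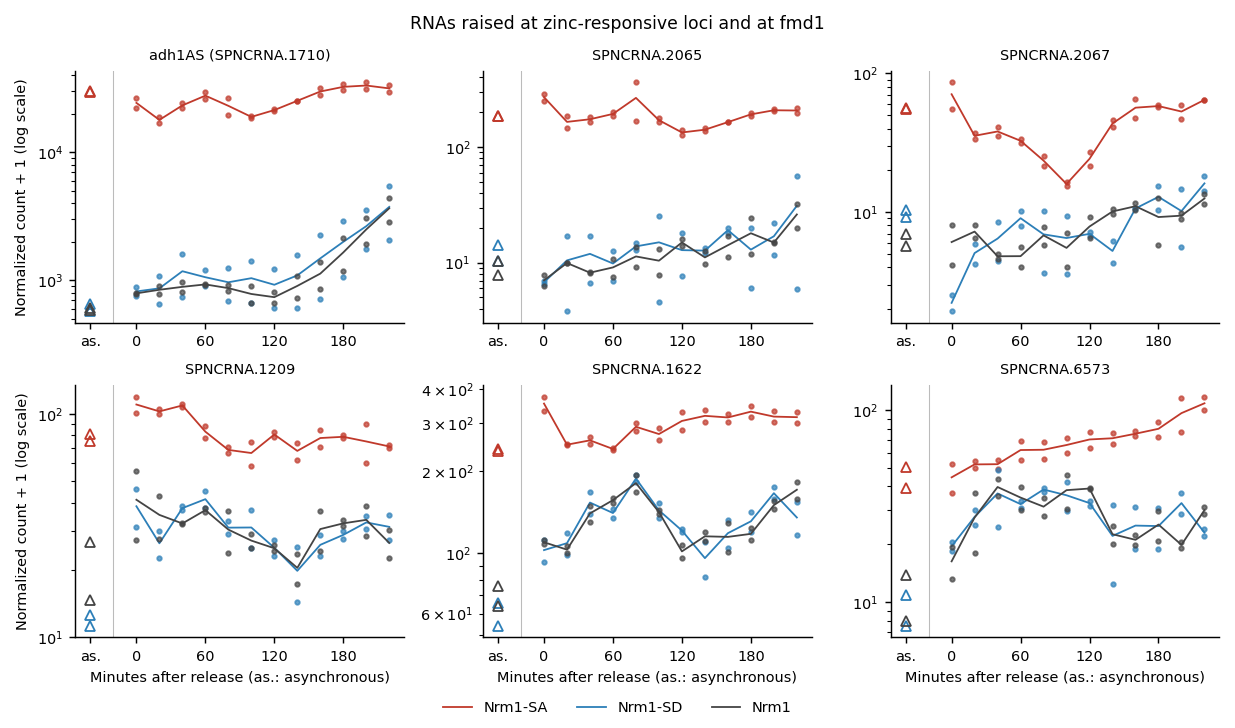
Normalized count + 1 (log scale) against minutes after release for 5 members at zinc loci and SPNCRNA.6573, with lines for the mean of 2 cultures of Nrm1-SA, Nrm1-SD and Nrm1, dots for single libraries and triangles for the asynchronous libraries (as.). Nrm1-SA stood above both other strains at every time in all 6 panels, and the Nrm1-SD and Nrm1 lines mostly ran together.

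The coding genes opposite the members did not share a direction. Of 45 partner genes 40 were tested, and over the Nrm1-SA time course 20 rose and 5 fell (limma, adjusted p under 0.1), with a median of 0.09 on the log2 scale, beside 21.9% and 21.6% of all features. DESeq2 on summed reads called 12 higher and 5 lower. Besides adh1, pan6 and fmd1, where the RNA rose and the gene fell, the pairs included adh4, zrt1 and slp1, where both rose. Among the 15 tested coding genes that end at or shortly before a member on the same strand, 8 rose and 3 fell, beside the same shares of all features. The coding gene SPAC5H10.07, 310 bases before SPNCRNA.2067, averaged 22.3 and 22.1 normalized counts in Nrm1-SA and 12.3 and 13.2 in Nrm1 over the time course, and rose by 0.73 ± 0.13 (SE, adjusted p = 0.0021).

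**Figure D3:**
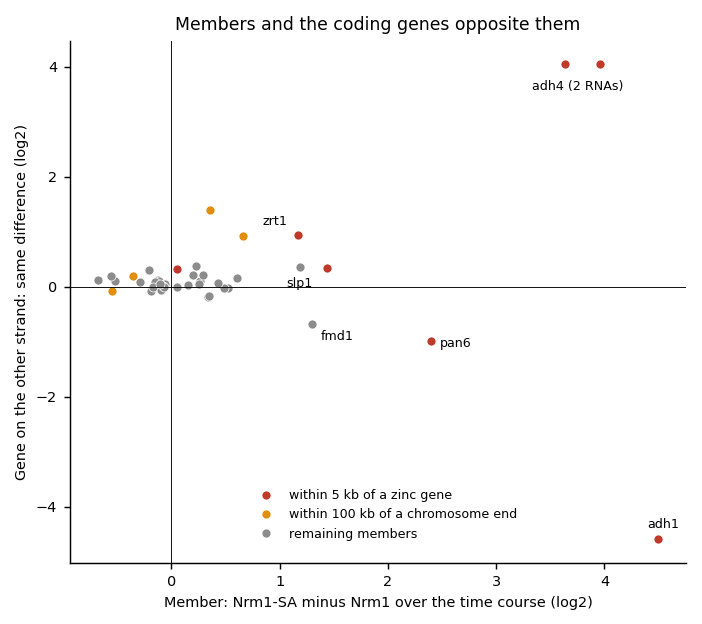
Nrm1-SA minus Nrm1 difference over the time course (log2) of each member (x axis) against that of the coding gene on its other strand (y axis), for members whose gene was tested, coloured by position group. The pair of adh1AS and adh1 stands at 4.50 and -4.58, the 2 RNAs opposite adh4 stand near 4 on both axes, and most others lie close to 0.

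The 10 members within 100 kb of a chromosome end were the group in which Nrm1-SD also moved. In the time course 6 rose and 3 fell in Nrm1-SA (limma), beside 21.9% and 21.6% of all features. In Nrm1-SD 5 rose and 1 fell, beside 0.861% and 0.982%. The risers SPNCRNA.4497, SPNCRNA.6641 and SPNCRNA.4489 had passed the required mean through the mutants, so their rises are a description. Of the other 90 tested noncoding RNAs in those regions, 20 rose and 20 fell in Nrm1-SA, and 12 rose in Nrm1-SD. These regions are known to be packed in heterochromatin and to hold repeated sequence, so that reads may map to several places.

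SPNCRNA.4497 (chrI:5530004-5531135, plus strand) lies 47998 bases from the end of chromosome I, opposite a hydroxyacid dehydrogenase gene, SPAC186.02c. It had 24.4 and 14.2 normalized counts in asynchronous Nrm1-SA, 12.1 and 1.66 in Nrm1-SD and 0 in both Nrm1 libraries. Against the level that 3 reads a library would give in Nrm1, asynchronous Nrm1-SA was at least 4.02-fold higher. In the time course it averaged 19.0 and 16.6 in Nrm1-SA, 20.8 and 15.7 in Nrm1-SD and 1.86 and 2.06 in Nrm1, and the libraries of either mutant lay above all Nrm1 libraries. It was higher by 2.81 ± 0.16 in Nrm1-SA and 2.75 ± 0.16 in Nrm1-SD (SE, log2 scale), and the mutants differed by 0.07 ± 0.16 (limma adjusted p = 0.79). No stretch of 100 or more bases of SPNCRNA.4497 or of SPNCRNA.1093 matched elsewhere at 95% identity or more. Shorter matches were not considered. The starts of the 2 RNAs are printed with 30 bases on each side, the annotated RNA in capitals (ASM294v3, chrI:5529974-5530033 and chrI:5496912-5496971, both on the plus strand).
SPNCRNA.4497: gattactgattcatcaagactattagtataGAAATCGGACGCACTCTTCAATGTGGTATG
SPNCRNA.1093: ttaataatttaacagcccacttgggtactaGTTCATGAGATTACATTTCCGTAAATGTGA

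SPNCRNA.6641 (chrII:4517221-4518959, minus strand) was likewise close to 0 in Nrm1 but is repeated sequence, with 5 other matches of which the best is 98.7% identical. It had 6.36 and 5.06 normalized counts in asynchronous Nrm1-SA, 3.73 and 3.31 in Nrm1-SD and 0.855 and 0 in Nrm1. In the time course it averaged 12.5 and 13.0 in Nrm1-SA, 20.8 and 19.8 in Nrm1-SD and 0.99 and 1.79 in Nrm1. It was higher by 2.56 ± 0.19 in Nrm1-SA and by 3.21 ± 0.19 in Nrm1-SD (SE, log2 scale), and Nrm1-SA minus Nrm1-SD was -0.65 ± 0.19 (limma adjusted p = 0.025). Which of its copies gave these reads was not tested.

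SPNCRNA.4489 and SPNCRNA.1093, on the same arm, were higher in Nrm1-SD than in Nrm1-SA. SPNCRNA.4489 (chrI:5513503-5514741, minus strand), wholly opposite the urea transporter gene SPAC869.03c, averaged 9.09 and 8.47 normalized counts in the Nrm1-SA time course, 26.1 and 23.2 in Nrm1-SD and 5.51 and 6.96 in Nrm1. It was higher by 0.66 ± 0.14 in Nrm1-SA and by 1.96 ± 0.14 in Nrm1-SD (SE, log2 scale), and SPAC869.03c rose by 1.85 ± 0.16 in Nrm1-SD. SPNCRNA.1093 (chrI:5496942-5497837, plus strand), opposite the Con-6 family gene SPAC869.09, had 24.4 and 31.4 in asynchronous Nrm1-SA, 23.3 and 28.1 in Nrm1-SD and 3.42 and 0 in Nrm1. Both mutants stood above Nrm1 and overlapped each other. Across the time course it rose by 0.35 ± 0.08 in Nrm1-SA and 0.82 ± 0.08 in Nrm1-SD (adjusted p = 0.0085 and 0.00029).

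SPNCRNA.601 (chrI:40916-41770, minus strand) lies 287 bases after pfl6, a gene of the flocculin-like family. It had 14.8 and 12.1 normalized counts in asynchronous Nrm1-SA, 6.52 and 6.62 in Nrm1-SD and 2.56 and 0 in Nrm1, in that order without overlap. It rose by 1.12 ± 0.09 in the Nrm1-SA time course and by 0.57 ± 0.09 in Nrm1-SD (SE, log2 scale, limma adjusted p = 1.2e-05 and 0.011), and the Nrm1-SD value missed the threshold without the first Nrm1 culture (0.54, adjusted p = 0.10). Its 855 bases are repeated on chromosome II (chrII:21128-21982, minus strand), where SPNCRNA.287 is annotated, with 1 difference, T559C, counted from 1 at the start of SPNCRNA.601. Almost all reads of the pair therefore fit both places. The sequence around that base is shown in both copies (ASM294v3, minus strand, chrI:41192-41232 and chrII:21404-21444), with the differing base in capitals.
SPNCRNA.601: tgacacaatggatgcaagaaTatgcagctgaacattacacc
copy of SPNCRNA.601: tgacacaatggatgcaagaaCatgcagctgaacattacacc

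SPNCRNA.6657 (chrII:4536239-4537492, minus strand), singled out after its values were seen and lying 2312 bases from the end of the assembled chromosome II, split the mutants. Its cultures averaged 53.7 and 57.8 normalized counts in the Nrm1-SA time course, 26.5 and 23.2 in Nrm1-SD and 44.3 and 46.1 in Nrm1. It rose by 0.47 ± 0.09 in Nrm1-SA and fell by 0.67 in Nrm1-SD (SE 0.09, log2 scale, limma adjusted p = 0.0027 and 0.0029). At 0 min it averaged 68.8 in Nrm1-SA, 19.8 in Nrm1-SD and 83.2 in Nrm1, and at 220 min 43.5, 21.7 and 16.1. Over 120 to 220 min alone the Nrm1-SD difference was -0.13 (adjusted p = 0.74). SPNCRNA.6680 (chrIII:35876-37010, minus strand) and SPNCRNA.7751 (chrIII:2408569-2409706, minus strand) fell by 0.39 and 0.55 in the Nrm1-SA time course (adjusted p = 0.034 and 0.0037), although their asynchronous levels had put them in the set. The call of SPNCRNA.6680 was lost in DESeq2 (adjusted p = 0.11), without the first Nrm1-SA culture (0.15) and without either Nrm1 culture (0.13 each).

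**Figure D4:**
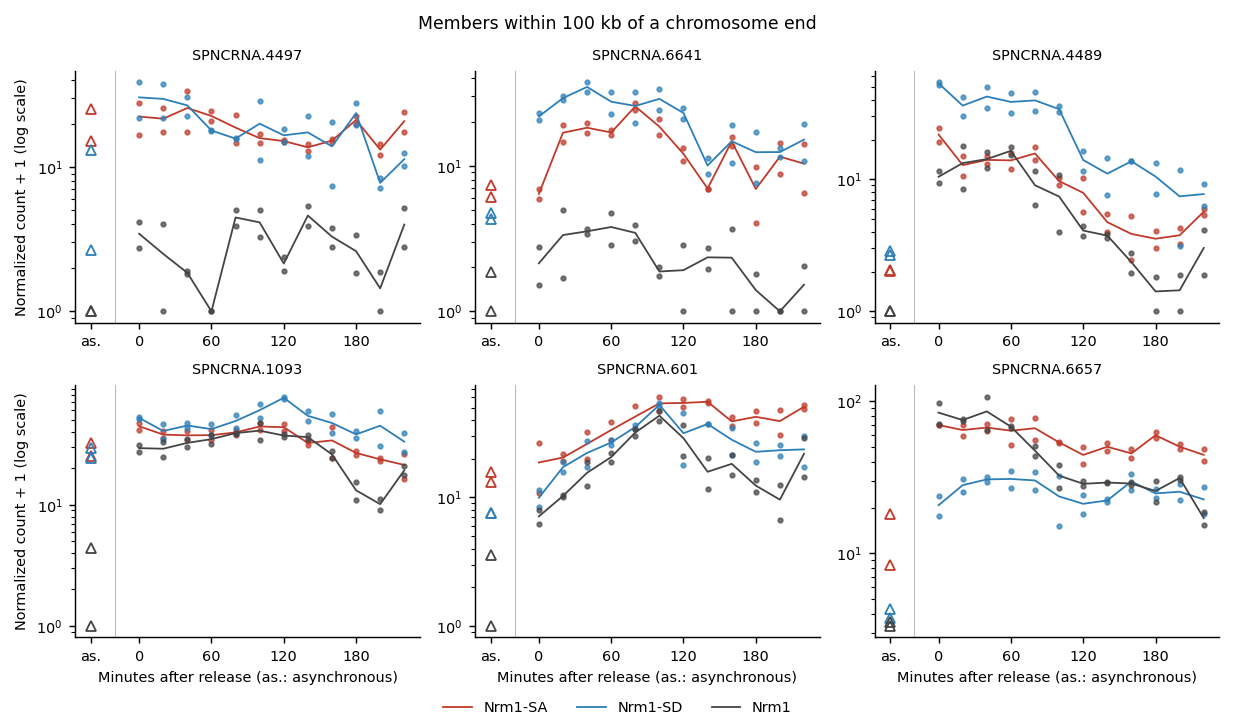
Normalized count + 1 (log scale) against minutes after release for 6 of the 10 members within 100 kb of a chromosome end, with lines for the mean of 2 cultures of Nrm1-SA, Nrm1-SD and Nrm1, dots for single libraries and triangles for the asynchronous libraries (as.). SPNCRNA.4497 and SPNCRNA.6641 were near 0 in Nrm1 and above 5 normalized counts on average in both mutants at every time, SPNCRNA.4489 was highest in Nrm1-SD, and SPNCRNA.6657 was lowest there at early times.

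Asynchronous Nrm1-SD was set against the asynchronous Nrm1 libraries, which the rule had selected for low values of the members, so a member stands above them in part by construction and the comparison is a description. Nothing is read from its calls or from their share over all features. By limma 15 members were called higher, where 1.55% of all features were, and 0 lower, where 0.848% of all features were (2 were lower at an unadjusted p under 0.05, and edgeR and DESeq2 called 0). Of the higher calls edgeR's quasi-likelihood test gave 3 and DESeq2 1, and 7 were left without the shallow second Nrm1 library and 8 without the second Nrm1-SD library. Both Nrm1-SD libraries lay above both Nrm1 libraries in 29 members, and in 18.4% of all tested features. Both Nrm1-SA libraries lay above both Nrm1-SD libraries in 46 members. The rule had selected the members for high values in those Nrm1-SA libraries, so that count is in part built in. Its share over all features is not given here, and nothing is read from it.

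Of the named members, SPNCRNA.1093 stood furthest above Nrm1 in asynchronous Nrm1-SD, by 3.66 on the log2 scale, with 23.3 and 28.1 normalized counts in Nrm1-SD and 3.42 and 0 in Nrm1. SPNCRNA.7751, opposite the ankyrin repeat gene dhm1, had 5.59 and 6.62 in Nrm1-SD and 2.56 and 0 in Nrm1. SPNCRNA.6680 had 3.73 and 3.31 in Nrm1-SD and SPNCRNA.5234 had 1.86 and 8.28, against 0 in both Nrm1 libraries for each. The Nrm1-SA values of SPNCRNA.6680, 3.18 and 2.02, were below both of its Nrm1-SD values, and those of SPNCRNA.5234, 1.06 and 2.02, overlapped them. The 8 members near zinc genes held no call in asynchronous Nrm1-SD by limma, edgeR or DESeq2 (0 higher and 2 lower at an unadjusted p under 0.05).

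At 0 min, the end of the block at 36 °C, 15 members rose in Nrm1-SA relative to Nrm1 by limma, against 2.11% of all features. None fell by limma (2 did at an unadjusted p under 0.05, and edgeR and DESeq2 called 1 each), against 2.42% of all features. Of the 15, 7 lay near zinc genes. Among the 15, SPNCRNA.4497, SPNCRNA.6641 and SPNCRNA.2067 had passed the required mean through the mutants, and their differences from Nrm1 are a description. The 0 min libraries are also part of the time course. The antisense RNA of adh1 had 26633 and 22026 normalized counts there in Nrm1-SA, 757 and 882 in Nrm1-SD and 789 and 795 in Nrm1. SPNCRNA.2781 (chrI:1740008-1745018, plus strand), opposite the cation antiporter gene kha1, had 124 and 105 in Nrm1-SA, 56.2 and 76.5 in Nrm1-SD and 65.0 and 52.5 in Nrm1, and rose by 0.96 ± 0.20 (SE, log2 scale, adjusted p = 0.0010). In Nrm1-SD 3 members rose and 3 fell at 0 min, against 1.05% and 0.982% of all features. The 3 that rose, SPNCRNA.4489, SPNCRNA.4497 and SPNCRNA.6641, lay near chromosome ends. All 3 had passed the required mean through the mutants, so their rises are a description. Tested directly, the Nrm1-SA difference was greater at 0 min than over 20 to 220 min in 3 members, SPNCRNA.2781, SPNCRNA.6197 and SPNCRNA.1622, against 0.875% of all features, with 1.59% of all features changed the other way. That test took the time points of 1 culture as independent.

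The remaining 36 members moved less. In the Nrm1-SA time course 14 rose and 5 fell (median 0.13 on the log2 scale), beside 21.9% and 21.6% of all features, and DESeq2 called 9 higher and 4 lower. Among the 14, SPNCRNA.3288 had passed the required mean through the mutants, so its rise is a description. In Nrm1-SD none passed in either direction by limma, edgeR or DESeq2 (2 were higher at an unadjusted p under 0.05). SPNCRNA.1238 (chrIII:1868057-1869906, plus strand), wholly opposite meu10, a gene of spore wall assembly, had 59.4 and 60.7 normalized counts in asynchronous Nrm1-SA, 19.6 and 26.5 in Nrm1-SD and 16.2 and 4.68 in Nrm1. In the time course it averaged 86.5 and 86.1 in Nrm1-SA, 74.5 and 77.1 in Nrm1-SD and 75.5 and 77.1 in Nrm1, a rise of 0.23 ± 0.06 (SE, limma adjusted p = 0.017), which was lost in DESeq2 (adjusted p = 0.14) and without the first Nrm1 culture (adjusted p = 0.11). The asynchronous gap, which the rule fixed, and this one are not compared.

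Other abundant members did not pass as raised once the cells were synchronized. SPNCRNA.1454 (chrII:1695093-1696776, minus strand), wholly opposite a gene for a BAR adaptor protein, had 35.0 and 61.7 normalized counts in asynchronous Nrm1-SA, 14.9 and 28.1 in Nrm1-SD and 10.3 and 16.4 in Nrm1. In the time course it averaged 85.2 and 95.6 in Nrm1-SA, 102 and 95.5 in Nrm1-SD and 98.1 and 103 in Nrm1, and differed by -0.12 ± 0.08 (SE, log2 scale, limma adjusted p = 0.25). SPNCRNA.1450 (chrII:1587684-1588850, plus strand), opposite the SAGA subunit gene ngg1, differed by -0.09 ± 0.07 (adjusted p = 0.33). SPNCRNA.1640 (chrII:3789314-3791261, plus strand), opposite the lipid transfer gene vps1301, had 45.6 and 49.6 in asynchronous Nrm1-SA, 13.0 and 21.5 in Nrm1-SD and 19.7 and 14.0 in Nrm1, yet fell by 0.53 in the Nrm1-SA time course (SE 0.09, adjusted p = 0.0018). SPNCRNA.4877 (chrII:784124-786019, minus strand), opposite gyp1, differed by -0.17 ± 0.20 (adjusted p = 0.53).

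The members that fell most in the Nrm1-SA time course were SPNCRNA.5234, SPNCRNA.3498, SPNCRNA.4728 and SPNCRNA.7751. SPNCRNA.5234 (chrII:1540969-1541500, plus strand) averaged 7.03 and 9.42 normalized counts there in Nrm1-SA, 16.3 and 16.0 in Nrm1-SD and 14.6 and 20.4 in Nrm1, and fell by 0.92 (SE 0.17, log2 scale, limma adjusted p = 0.0026). SPNCRNA.3498 (chrI:3353947-3355117, minus strand), opposite the GTPase-activating protein gene cnt6, averaged 21.4 and 31.8 in Nrm1-SA, 58.1 and 51.0 in Nrm1-SD and 43.1 and 45.5 in Nrm1, and fell by 0.68 (SE 0.15, adjusted p = 0.0064). In both, the Nrm1-SA cultures lay below all 4 others, the reverse of their order in the asynchronous libraries of Nrm1-SA and Nrm1. SPNCRNA.4728 (chrII:456671-458233, plus strand) lies wholly opposite clr4, the histone H3 lysine 9 methyltransferase gene of heterochromatin. It averaged 16.4 and 18.1 in Nrm1-SA, 24.2 and 24.6 in Nrm1-SD and 22.8 and 27.7 in Nrm1, and fell by 0.56 (SE 0.11, adjusted p = 0.0028), while clr4 rose by 0.19 ± 0.07 (adjusted p = 0.051). The gene meu6, which ends 118 bases before SPNCRNA.4728 on the same strand, fell by 0.58 (SE 0.06, adjusted p = 4.7e-05).

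**Figure D5:**
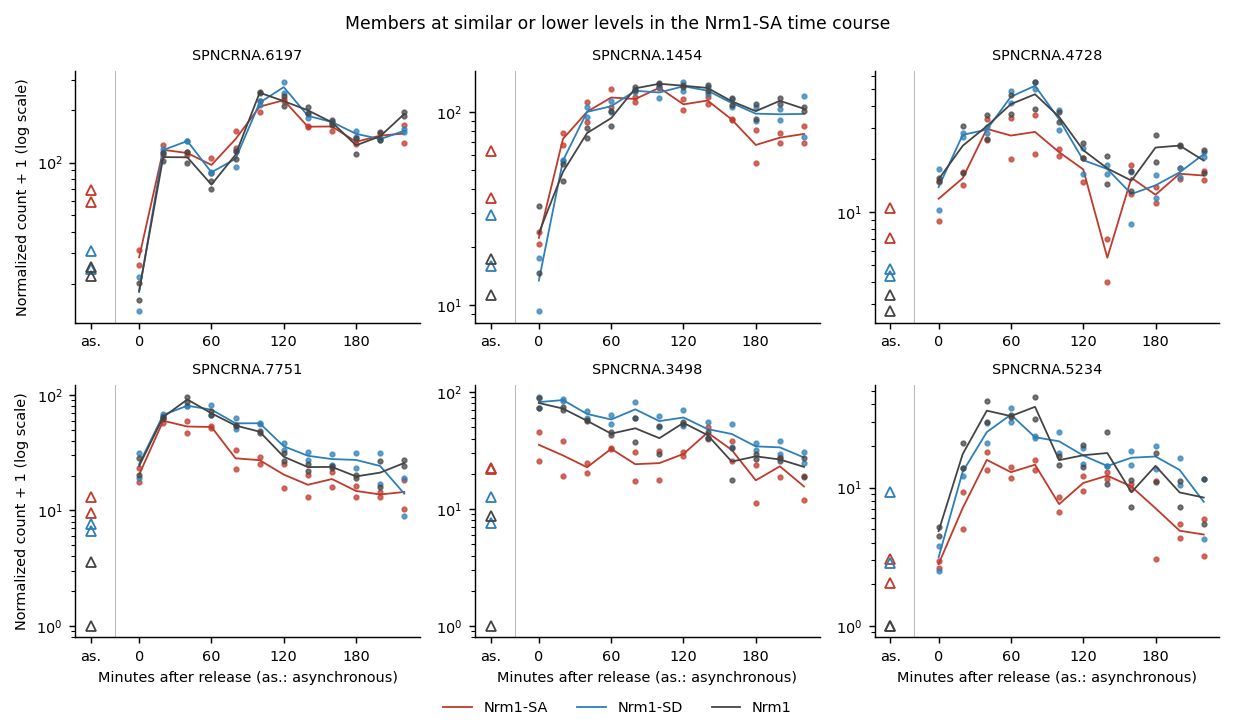
Normalized count + 1 (log scale) against minutes after release for 6 members that were not raised in the Nrm1-SA time course, with lines for the mean of 2 cultures of Nrm1-SA, Nrm1-SD and Nrm1, dots for single libraries and triangles for the asynchronous libraries (as.). Asynchronous Nrm1 lay below most or all of its own time course in each panel, and in the time course Nrm1-SA ran with the other strains (SPNCRNA.6197, SPNCRNA.1454) or below them.

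Set against their own time course, the members stood lower in the asynchronous cultures of Nrm1 and Nrm1-SD than in those of Nrm1-SA. The median member's asynchronous level differed from its time-course mean by -0.23 on the log2 scale in Nrm1-SA, -1.39 in Nrm1-SD and -1.66 in Nrm1. In the other noncoding RNAs these medians were -0.29, -0.42 and -0.50. The median time-course levels of the members were 26.8, 23.1 and 20.3 normalized counts in the same order of strains, and the median asynchronous levels 19.1, 8.0 and 4.9. Both asynchronous libraries lay below all 24 time-course libraries of the strain in 4 members in Nrm1-SA (7.41%), 19 in Nrm1-SD (35.2%) and 28 in Nrm1 (51.9%). In the same order of strains, the shares of the other noncoding RNAs were 8.18%, 9.78% and 16.2%. Those of all tested features were 4.43%, 5.77% and 7.95%. The asynchronous Nrm1-SA and Nrm1 values chose the members, so these figures describe the set and were not tested. The rule favoured low asynchronous Nrm1 values, so a low level there is in part built in.

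Waves were looked for in each strain. Fitted by limma with a wave of 120 min, and counted where the adjusted p was under 0.1 and peak and trough differed by 1 or more (log2), 3 of 54 members cycled in Nrm1-SA, 8 in Nrm1-SD and 5 in Nrm1, against 3.84%, 7.75% and 8.29% of all features. Without 1 replicate the counts were 1, 1 to 5 and 3 to 4. The wave fit took the time points of 1 culture as independent, so its adjusted p does not measure the spread between cultures. The 3 members that cycled in all 3 strains were SPNCRNA.4728, SPNCRNA.2489 and SPNCRNA.3813, of which SPNCRNA.2489 and SPNCRNA.3813 were picked out after their values were seen. SPNCRNA.4728 had peaks at 74.5, 78.8 and 75.9 min and peak-to-trough differences of 1.10, 1.18 and 1.20 in Nrm1-SA, Nrm1-SD and Nrm1. SPNCRNA.2489 (chrI:1118968-1119876, minus strand), opposite the uncharacterized gene SPAC30D11.02c, had the larger waves, of 1.98, 1.83 and 2.99, with peaks at 79.8, 80.2 and 77.5 min. SPNCRNA.3813 (chrI:4065217-4066094, plus strand), with no gene on its other strand, had waves of 1.13, 1.22 and 1.39 and peaks at 81.9, 86.4 and 84.0 min. SPNCRNA.5234 met it in Nrm1-SD, at 58.3 min, and in Nrm1, at 61.0 min, with 1.54 and 1.33. SPNCRNA.6680 met it in Nrm1-SD alone of the 3 strains (1.07), and the difference between strains was not tested.

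Genes whose products restrain noncoding RNAs were read against the same shares of all features in the Nrm1-SA time course, 21.9% higher and 21.6% lower. Of 24 tested genes of the nuclear exosome and its cofactors, which degrade such RNAs, 10 fell over the Nrm1-SA time course and none rose (limma; 0 rose at an unadjusted p under 0.05, by edgeR and by DESeq2), with a median of -0.07 on the log2 scale. The largest fall was that of rrp4, an exosome cap subunit, by 0.26, followed by csl4, by 0.25, and the catalytic subunit gene rrp6 fell by 0.18. Of 23 genes of RNA interference and heterochromatin, 8 rose and 3 fell, from -0.31 for stc1, which links both machineries, to 0.19 for clr4. DESeq2 called 1 of these in each direction. Of 17 chromatin factors of antisense suppression 1 rose (msc1, by 0.20) and 5 fell, the most cph1, by 0.26, and DESeq2 called 2 of the falls. Of 12 genes of decay and termination 1 rose, the exonuclease gene exo2, and 1 fell, dhp1, of which DESeq2 called neither and edgeR the first.

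Differences were larger in the zinc genes. Of 9 tested, 7 rose in the Nrm1-SA time course and adh1 fell, and besides adh4 and zrt1 the risers included fet4, an iron and zinc transporter gene, by 1.22, zym1, a metallothionein gene, by 0.86, and loz1 itself, by 0.51 on the log2 scale. Of 2 tested phosphate genes, tgp1 rose by 0.33. Of 7 MBF subunits and regulators rep1 rose by 0.50, yox1 fell by 0.78 and nrm1 fell by 0.54. In the Nrm1-SD time course these lists together held 1 call by limma, yox1, which fell by 0.14. Point mutations leave the nrm1 mRNA countable, so its level checks no label.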

How the data were processed

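The deposited table held 78 libraries of polyadenylated RNA and 12683 features. Per the labels and the study's methods, the authors trimmed reads from a strand-specific kit with Trimmomatic, aligned them with STAR 2.7.9a to S. pombe (the labels name ASM294v2), obtained counts per feature with HTSeq and scaled these by size factors of DESeq2 1.36.0, which makes the deposited signal a normalized count. The strand setting of HTSeq and its treatment of reads with several matches are not given in the sources used here. Every deposited value was a whole multiple of its library's step (100% of values within 0.001 read), so read counts were recovered. Libraries held 2685381 to 10469416 reads.

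The 7431 features with a mean of at least 10 were tested with limma 3.58.1 (R 4.3.3) on log2(normalized count + 1), with p-values adjusted over all of them by Benjamini and Hochberg's method at 0.1. Time courses were compared as means over the 12 times of each of 2 cultures a strain. Asynchronous and 0 min libraries were compared in a fit of 39 conditions that share one spread. The 2 Nrm1-SA libraries of 140 min, closer to each other than read sampling alone would make them, entered that fit as 1 sample, leaving 77. The fit of 39 conditions and the wave fit took the time points of 1 culture as independent. Replicates are biological duplicates per the study's methods. edgeR 4.0.16 (quasi-likelihood) and DESeq2 1.42.0 were run on recovered reads, summed over each culture for the time course. In the Nrm1-SA time course edgeR called 34 members and DESeq2 28, against 35 by limma. Fits were tested on simulated data. Other pseudocounts, filters, scalings, spans of time and a replicate block were tried, and each replicate was left out in turn.

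Members, lists and tests were chosen with earlier results of these data known. Named members were the 12 most abundant, the 8 that rose most and the 4 that fell most in the Nrm1-SA time course, the 6 that differed most in asynchronous Nrm1-SD, and the 3 on each side of the rule's threshold, with their neighbours, and of gene lists those past the threshold. Coordinates and sequences are from RefSeq's ASM294v3, in which 12602 of the 12683 features were found by name. Repeats were searched with BLAST 2.17.0.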

Additional observations from a re-analysis of the deposited data

Results flagged for a closer look

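For 3 members the Nrm1-SA difference from Nrm1 was greater at 0 min, at the end of the block, than over 20 to 220 min, by an interaction contrast in limma over 39 conditions, adjusted over all features. SPNCRNA.2781, opposite the cation antiporter gene kha1, differed by 0.96 at 0 min and 0.20 afterwards on the log2 scale, an excess of 0.754 (SE 0.204, adjusted p = 0.038). SPNCRNA.6197, opposite mok13 near zrt1, differed by 0.64 at 0 min and -0.0048 afterwards, an excess of 0.648 (SE 0.163, adjusted p = 0.020). SPNCRNA.1622, at the start of zrt1, differed by 1.69 at 0 min and 1.13 afterwards, an excess of 0.558 (SE 0.145, adjusted p = 0.028). In each of the 3 members, both Nrm1-SA libraries lay above both Nrm1 libraries at 0 min. The cause was not tested.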

How the results depend on the processing

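Of 101 alternative counts, 82 stayed within 1.5 times the value reported. Called members numbered 35 in the Nrm1-SA and 6 in the Nrm1-SD time course, 33 between the mutants, 15 in asynchronous Nrm1-SD, and 15 and 6 at 0 min in Nrm1-SA and Nrm1-SD. With a mean of at least 50, which left 11 members, they numbered 8, 0, 8, 3, 8 and 0. The asynchronous Nrm1-SD count was 4 with a pseudocount of 5, 3 in edgeR, 1 in DESeq2, and 1 with the 6 asynchronous libraries alone. Leaving out 1 replicate gave 29 to 30, 5 to 9, 28 to 32, 7 to 17, 11 to 13 and 4 to 8 in that order, 18 to 21 opposite genes and 5 to 10 upstream neighbours. Waves, in the order Nrm1-SA, Nrm1-SD and Nrm1, were 1 and 4 with a pseudocount of 5 in the mutants, 1, 5 and 3 with a period of 110 min, 8 in Nrm1 with 130 min, 7, 21 and 18 with no minimum size, and 1, 1 to 5 and 3 to 4 without 1 replicate.

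Among named members, 397 of 411 values in the Nrm1-SA time course, 93 of 96 in the Nrm1-SD time course and 116 of 168 in asynchronous Nrm1-SD stayed on their side of the threshold, and 0 changed direction. Those lost in the Nrm1-SA time course belonged to SPNCRNA.1238, SPNCRNA.6680, SPNCRNA.2781, SPNCRNA.1093, SPNCRNA.4489 and SPNCRNA.3498. Same-numbered samples did not deviate together in every pair of strains. Over 5356 features the correlation was 0.287 between Nrm1-SD and Nrm1 culture means and 0.268 between Nrm1-SA and Nrm1-SD at 0 min. It was -0.12 between asynchronous Nrm1-SA and Nrm1. Whether same-numbered samples share more than a number cannot be told from these values. With the replicate number as a block, called members numbered 33, 6, 32, 15, 16 and 6, and the block crossed for Nrm1, chosen after seeing the data, gave 15 in asynchronous Nrm1-SD. Depth limits the asynchronous values, since a read was worth 2.34 normalized counts in the shallowest Nrm1 library.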
